A study of Mus musculus with 16 samples.

Results

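The genes described here encode the subunits of the proteasome and were chosen by symbol: Psma and Psmb genes for the 20S core, Psmc and Psmd genes for the 19S regulatory particle, without the interferon-inducible subunits Psmb8, Psmb9 and Psmb10. They came to 36 of the 28632 gene names on the array, 16 of them in the 20S and 20 in the 19S group, and were read by 55 of 41174 probes. After the filter on dim probes 35 of the 36 genes were left among 16685 genes. The gene left out was Psmb11, the thymus form of a core subunit, neither of whose probes was well above background in any of 24 channels.

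Mouse liver RNA was hybridised on 16 Agilent arrays in 2 colours, which formed 8 dye-swapped experiments. Livers were compared in 4 ways: Nrf2 KO (the null genotype Nrf2–/–) against wild type in experiments 1 and 4, Atg7 cKO (Atg7F/F:Mx1-Cre) against wild type in experiments 2 and 5, the double knockout (Atg7F/F:Mx1-Cre:Nrf2-/-) against wild type in experiments 3 and 6, and the double knockout directly against Atg7 cKO in experiments 7 and 8. Per the labels, the mice, controls included, received pIpC at 8 weeks of age and RNA was taken from the liver 4 weeks later. Cre was driven by the Mx1 promoter, which pIpC induces and which is not restricted to hepatocytes, whereas Nrf2 was absent from the whole animal. The labels give no animal numbers, so the spread between experiments may in part be technical.

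The proteasome degrades proteins tagged with ubiquitin. Its 20S core is a barrel of stacked rings, in which alpha subunits form the gated outer rings and beta subunits the inner rings with the proteolytic sites of Psmb5, Psmb6 and Psmb7. The 19S particle caps the barrel: its base holds a ring of ATPases that unfold substrates, and its lid holds the enzyme that removes ubiquitin. In cells exposed to interferon, Psmb8, Psmb9 and Psmb10 replace the 3 catalytic subunits. Atg7 is an enzyme needed to form autophagosomes, the other main route of protein degradation in liver. Nrf2, the product of Nfe2l2, activates genes of the antioxidant response through the antioxidant response element, and its relative Nrf1, the product of Nfe2l1, drives proteasome genes when the proteasome is inhibited.

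Promoter sequences are shown for the subunits whose mRNA differed most between Atg7 cKO and the other livers, Psmb5, Psmd5 and Psmd8. RefSeq (build GRCm38.p6) gave windows of 250 bases before to 50 bases after the start of 29 of the 36 genes. Each line below is the 250 bases before the start, 5′ to 3′ on the gene's minus strand, at chr14:54617996-54618245 for Psmb5, chr2:34870963-34871212 for Psmd5 and chr7:29180674-29180923 for Psmd8. Capitals mark the core of the antioxidant response element, searched as TGACNNNGC on both strands.
Psmb5: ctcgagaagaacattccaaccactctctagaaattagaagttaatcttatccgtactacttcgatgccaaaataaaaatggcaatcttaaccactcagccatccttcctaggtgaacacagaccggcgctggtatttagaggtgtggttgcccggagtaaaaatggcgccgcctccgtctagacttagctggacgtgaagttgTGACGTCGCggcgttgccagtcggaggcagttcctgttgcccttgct
Psmd5: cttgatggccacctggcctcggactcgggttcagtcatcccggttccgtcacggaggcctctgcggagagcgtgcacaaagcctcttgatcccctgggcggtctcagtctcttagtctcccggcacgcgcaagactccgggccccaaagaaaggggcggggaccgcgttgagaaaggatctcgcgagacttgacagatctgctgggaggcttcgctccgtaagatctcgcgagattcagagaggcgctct
Psmd8: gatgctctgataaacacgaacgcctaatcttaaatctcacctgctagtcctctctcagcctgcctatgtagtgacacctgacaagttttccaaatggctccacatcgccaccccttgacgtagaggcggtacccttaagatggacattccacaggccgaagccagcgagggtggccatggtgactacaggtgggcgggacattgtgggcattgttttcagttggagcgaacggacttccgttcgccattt
The core was present in the Psmb5 window, starting 47 bases before the start, and not in those of Psmd5 and Psmd8. It was found in 5 of the 31 windows of proteasome genes (16.1%), those of Psmb5, Psmb6, Psmc6, Psmd9 and Psmd12, and in 4071 of all 32851 windows (12.4%). The CCAAT box, searched as CCAAT on both strands, was in 12 of the 31 windows (38.7%) and in 37.4% of all windows. No promoter of Psma8, Psmb1, Psmb2, Psmb7, Psmc3, Psmd3 or Psmd7 was examined.

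Values are log2 ratios of the first-named genotype over the second, and a gene was called where the adjusted p of limma (Benjamini-Hochberg over all genes tested) was under 0.05. Nfe2l2 was lower in Nrf2 KO than in wild type by a log2 ratio of -3.88 (-3.78 and -3.97; limma, adjusted p = 0.0267), and double-knockout livers had -3.71. For Atg7 the log2 ratio over wild type was -0.81 with Atg7 cKO and -0.73 with double-knockout livers. In the direct comparison Nfe2l2 was lower by -6.49, whereas Atg7, deleted on both sides, stood at -0.03 in experiment 7 and 1.03 in experiment 8. The experiments fell into 2 sets: in both channels the log2 signal of Xist was 5.73 to 5.79 in experiments 1 to 3, against 11.07 to 11.60 in 4, 5 and 6, with the Y-linked Ddx3y and Eif2s3y the other way round. Each comparison with wild type held 1 experiment of either kind, so the spread between its 2 experiments also holds any difference between the sets. Markers of several cell types also moved with genotype, those of hepatocytes and macrophages among them. The summed signal of 9 hepatocyte markers was 50610 and 57150 in Atg7 cKO, against 121600 and 126500 in wild type, and that of 15 macrophage markers was 31760 and 57370 in Atg7 cKO, against 9269 and 11820 in wild type. Double-knockout livers had a hepatocyte sum of 51770 and 96290, against 73900 and 108000 in wild type. Their macrophage sum was 42910 and 68520, against 5854 and 11820 in wild type. The stellate sum was 8293 and 10510 in Atg7 cKO, against 5264 and 6827 in wild type. The cholangiocyte sum was 3837 and 4378, against 916.7 and 1217, although the median log2 ratio of these markers was 0.14. Both sums were higher in double-knockout livers too, where the endothelial sum was 1772 and 3664, against 2915 and 4199 in wild type. In bulk liver a change in the mix of cells and a change in RNA per cell cannot be told apart, and the part of these shifts in the subunit values below was not tested.

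The loss of Atg7 altered few subunits, and the altered ones did not move as a block. In Atg7 cKO 6 of the 35 subunits (17.1%) were called, 4 higher and 2 lower than in wild type, where 39.4% of all genes tested were called (23.2% higher and 16.2% lower). The median log2 ratio of the 35 was 0.01, beside 0 for all genes, and the median size of the ratio regardless of sign was 0.10, beside 0.18 for all genes. Of the 35 subunits, 23 lay within the interquartile range of all genes. The members that rose were a catalytic subunit, a lid subunit and a pair of assembly chaperones of the 19S base.

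Psmb5, which carries the chymotrypsin-like site, had a log2 signal of 10.93 and 11.30 in Atg7 cKO, against 10.46 and 10.70 in wild type, in experiments 2 and 5. Its log2 ratio was 0.53 (0.47 and 0.59; SE 0.051, n = 2; limma, adjusted p = 0.00191), a 1.45-fold increase. Both Atg7 cKO livers were above their wild-type partners on either dye orientation, at 0.29 and 0.65 on the arrays of experiment 2 and 0.44 and 0.75 on those of experiment 5. The other catalytic subunits did not pass the test. Psmb6, which carries the caspase-like site, was at -0.06 (-0.10 and -0.01; 95% interval -0.20 to 0.08), and Psmb7, which carries the trypsin-like site, was at -0.11 (-0.12 and -0.09; 95% interval -0.24 to 0.02).

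Psmd8, a lid subunit, had a log2 signal of 10.77 and 10.84 in Atg7 cKO, against 10 and 10.04 in wild type. Its log2 ratio of 0.78 (0.76 and 0.80; SE 0.063; limma, adjusted p = 0.00136) was the highest of the 35 subunits in this comparison. Psmd5, a chaperone that holds base ATPases before they are built into the particle, had a log2 signal of 9.09 and 9.28 in Atg7 cKO, against 8.33 and 8.71 in wild type. Both Atg7 cKO values exceeded both wild-type values, and the log2 ratio was 0.67 (0.76 and 0.57; SE 0.084; limma, adjusted p = 0.00379). Psmd10, also called gankyrin and likewise a chaperone of base assembly, was higher by 0.43 (0.44 and 0.42; limma, adjusted p = 0.00754). Psmd9, the remaining chaperone, was at -0.05 (-0.07 and -0.02) and was not called.

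The 2 subunits that fell were Psmc1, an ATPase of the base, by a log2 ratio of -0.24 (-0.21 and -0.26; limma, adjusted p = 0.0158), and Psmd6, a lid subunit, at -0.47 (-0.31 and -0.62; limma, adjusted p = 0.0274). Psmd3, another lid subunit, was next lowest at -0.34 (-0.22 and -0.46; adjusted p = 0.0551, limma) and was not called. Psmd7, a lid subunit, was at 0.17 on its brightest probe and 0.22 on a second, whereas a probe for another transcript accession gave -0.32. None of the 8 alpha subunits was called in Atg7 cKO, and their range was -0.23 to 0.36. Psmb5, Psmd5 and Psmd8 were called in each of the 14 settings tried, and Psmd10, Psmd6 and Psmc1 in 13, 12 and 10. Not all settings were separate checks. Each of these genes had a single probe, so dropping the filter or averaging over probes left its ratio unchanged. Leaving out an experiment of another comparison altered only the shared spread. Without experiment 5 the values were those of experiment 2, 0.47 for Psmb5, 0.76 for Psmd5 and 0.76 for Psmd8. With arrays centred on the median in place of loess, the median of all genes was 0.21 and 45.9% of all genes were called. Of the subunits 18 were called, 18 higher and 0 lower, with Psmc1 at 0.21 and Psmd6 at -0.01. With experiments 1 to 3 and 4 to 6 as a block, 9 were called, 5 higher and 4 lower. There 47% of all genes were called, and the additional subunits were Psma1, Psmd1 and Psmd3.

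**Figure D1:**
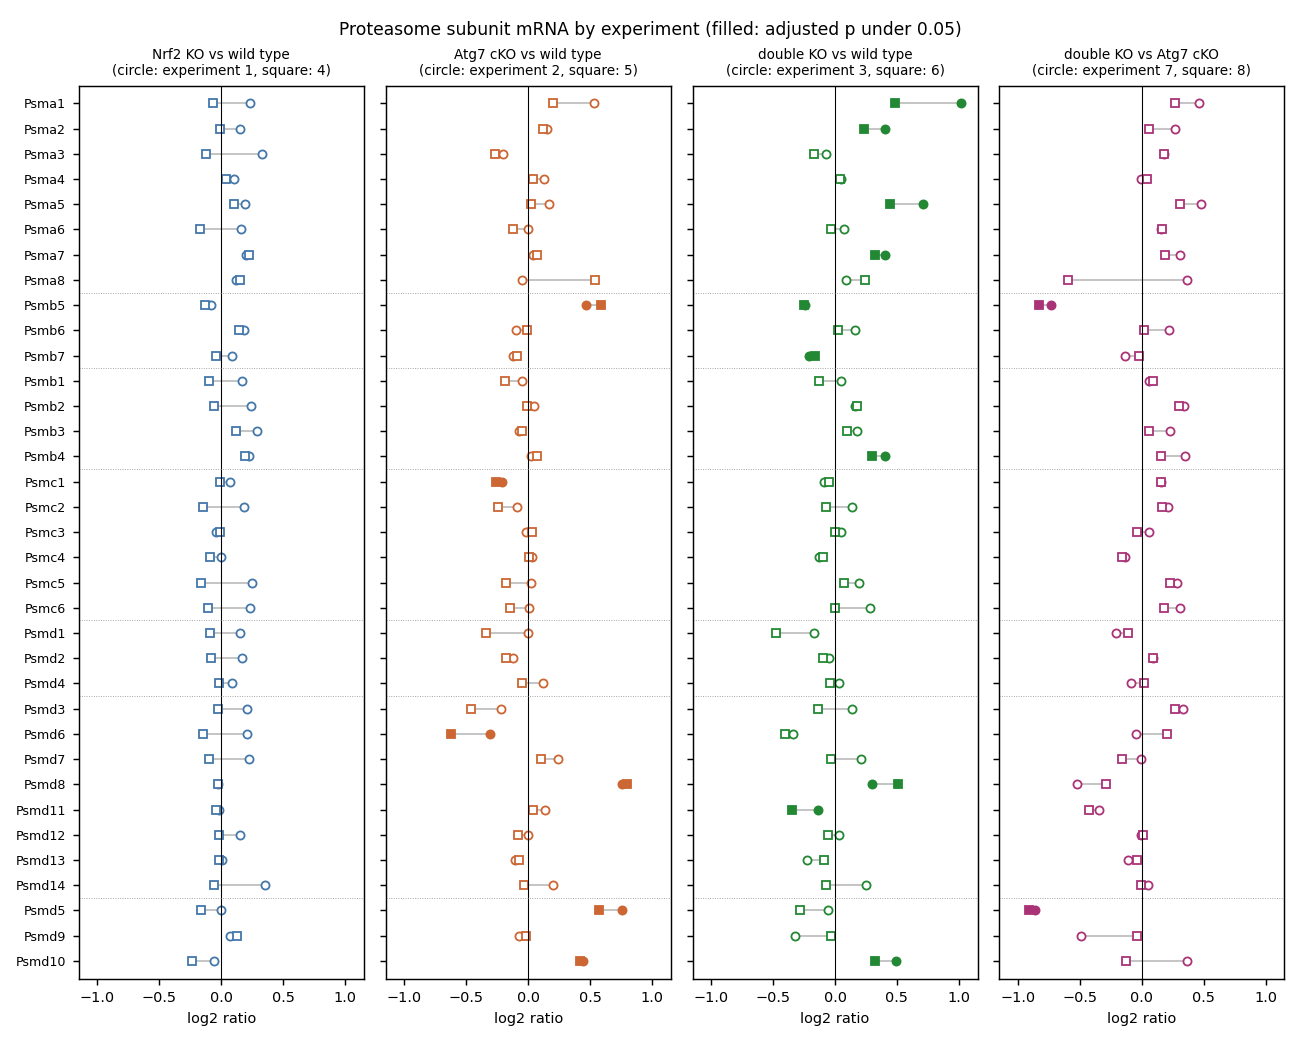
Log2 ratio of each of 35 proteasome subunits (rows, from alpha ring at the top to 19S chaperones at the bottom, dotted lines between roles) in 4 comparisons, first-named genotype over the second. Circles and squares are the 2 experiments of a comparison and filled symbols have an adjusted p under 0.05 (limma); Psmb5, Psmd5 and Psmd8 stand to the right in Atg7 cKO vs wild type, and Psmb5 and Psmd5 to the left in double KO vs Atg7 cKO.

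When Nrf2 was missing as well, alpha subunits of the 20S core made up 4 of the 7 subunits that were higher. In all, 10 of 35 subunits (28.6%) were called in the double knockout against wild type, 7 higher and 3 lower, where 37.1% of all genes tested were called (21.2% higher and 15.9% lower). Of the 8 alpha subunits 4 were higher and 0 lower, with a median of 0.24, against 0 for all genes. Their rings form the gate through which substrates enter the core.

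Psma1 had a log2 signal of 11.91 and 12.24 in the double knockout, against 10.89 and 11.76 in wild type, in experiments 3 and 6. Its log2 ratio was 0.75 (1.02 and 0.48; SE 0.161; limma, adjusted p = 0.0191), the largest of the subunits here and with the widest gap between experiments among those called. Psma5 had a log2 signal of 11.99 and 12.56 in the double knockout, against 11.29 and 12.12 in wild type. It was higher by 0.58 (0.71 and 0.44; SE 0.081; limma, adjusted p = 0.00525). The difference within each experiment was in the same direction for both genes, although the double-knockout value of experiment 3 was below the wild-type value of experiment 6 for Psma5.

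Psma7 was higher by 0.36 (0.40 and 0.32; limma, adjusted p = 0.00401) and Psma2 by 0.32 (0.40 and 0.23; limma, adjusted p = 0.0181). Of the alpha subunits not called, Psma3 was at -0.12, Psma6 at 0.02, Psma4 at 0.05 and Psma8 at 0.17. Psma8 is the testis form of Psma7, and its probe was dim. Among the beta subunits without a proteolytic site, Psmb4 was higher by 0.35 (0.40 and 0.30; limma, adjusted p = 0.00535), and Psmb1, Psmb2 and Psmb3, at -0.04, 0.17 and 0.14, were not called.

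Psmb5 did not show in the double knockout the increase seen in Atg7 cKO. Its log2 signal was 9.61 and 10.43 in the double knockout, against 9.85 and 10.68 in wild type, a log2 ratio of -0.25 (-0.24 and -0.25; SE 0.051; limma, adjusted p = 0.0175). Psmd5 likewise had 7.73 and 8.43 in the double knockout, against 7.80 and 8.71 in wild type, a log2 ratio of -0.17 (-0.06 and -0.28; 95% interval -0.38 to 0.04; limma, adjusted p = 0.173). Psmd8 and Psmd10, by contrast, were higher in the double knockout too, Psmd8 by 0.40 (0.30 and 0.51; limma, adjusted p = 0.00725) and Psmd10 by 0.41 (0.49 and 0.32; limma, adjusted p = 0.00941). Psmb7 was lower by a log2 ratio of -0.18 (-0.21 and -0.16; limma, adjusted p = 0.0431) and Psmd11, a lid subunit, by -0.24 (-0.14 and -0.35; limma, adjusted p = 0.0386). The sign for Psmb7 turned with the dye. With the double knockout in Cy3 its ratio was 0.22 and 0.30, and in Cy5 -0.63 and -0.62. With a dye effect in the fit Psmb7 was not called. The lowest values of the comparison, Psmd6 at -0.37 (adjusted p = 0.0548, limma) and Psmd1, a scaffold of the base, at -0.33 (adjusted p = 0.0928, limma), were not called. Psmb6 was at 0.09 (95% interval -0.05 to 0.23).

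Not all of these calls were equally firm. Psma5 and Psma7, with a single probe each, were called in each of 14 settings, some of which left their ratios unchanged. The lower calls were made in 8 (Psmb5), 4 (Psmd11) and 3 (Psmb7) of the 14. With median centring the median of all genes was 0.14 and 36.5% of all genes were called. Of the subunits 8 were called, 8 higher and 0 lower, with Psmb5 at 0.01 and Psmb7 at 0.14. The deposited value table gave 7 higher and 1 lower, where 42.6% of all genes were called. The lower one was Psmd13, and Psmb5, Psmb7 and Psmd11 were not called there. An offset of 10 gave 7 higher and 0 lower, where 39.8% of all genes were called. With experiments 1 to 3 and 4 to 6 as a block 13 subunits were called, 7 higher and 6 lower. There 44.6% of all genes were called, and Psmd1, Psmd5 and Psmd6 were the additional lower calls. Psma1, Psmb4, Psmd8 and Psmd10 were called in 13 of the 14 settings and Psma2 in 12. Without experiment 3 the values were those of experiment 6, 0.48 for Psma1, 0.44 for Psma5, 0.32 for Psma7 and 0.51 for Psmd8. Without experiment 6 Psmd8 was at 0.30.

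**Figure D2:**
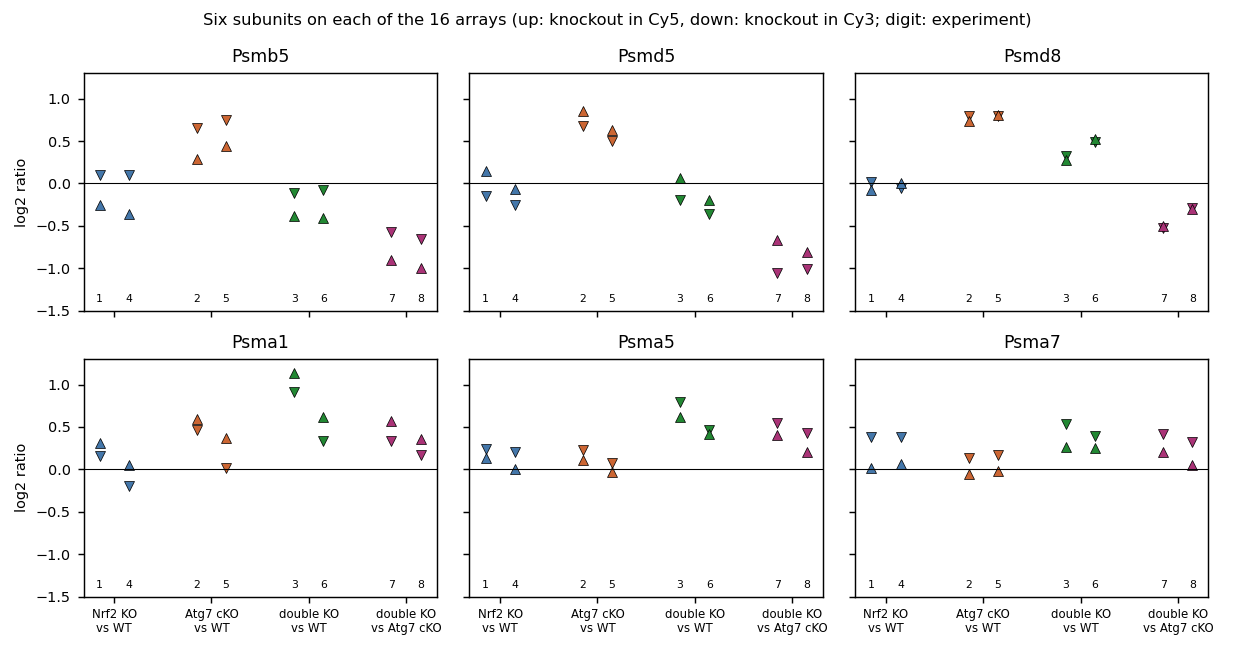
Log2 ratio of 6 subunits on each of the 16 arrays, by comparison and experiment (digit), with the first-named genotype in Cy5 (up) or Cy3 (down). Psmb5 and Psmd5 lie above 0 on all 4 arrays of Atg7 cKO vs wild type and below 0 on all 4 of double KO vs Atg7 cKO, whereas Psma1, Psma5 and Psma7 are above 0 on all 4 of double KO vs wild type.

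The direct hybridisation compared Atg7-deleted livers that lacked Nrf2 with Atg7-deleted livers that had it. Atg7 mRNA itself was not matched between the sides in experiment 8 (1.03, against -0.03 in experiment 7). The part of this difference in the values below was not tested. Only 2 of 35 subunits (5.71%) were called in the double knockout against Atg7 cKO, 0 higher and 2 lower, where 14.8% of all genes tested were called (6.72% higher and 8.07% lower). Psmd5 was lower by a log2 ratio of -0.89 (-0.86 and -0.91; SE 0.115, n = 2; limma, adjusted p = 0.00839), or 0.541 of the Atg7 cKO level. Psmb5 was lower by -0.78 (-0.73 and -0.83; SE 0.094; limma, adjusted p = 0.00673), or 0.582 of the Atg7 cKO level. For either gene both experiments and both dye orientations were below 0, with single arrays between -1.06 and -0.67 for Psmd5 and between -1 and -0.57 for Psmb5.

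The same difference taken through wild type was -0.84 for Psmd5 (95% interval -1.14 to -0.53; limma, adjusted p = 0.0294) and -0.78 for Psmb5 (95% interval -0.96 to -0.59; limma, adjusted p = 0.0122). This route used other arrays and another scaling, since the direct values come from the deposited table. The labels do not say whether the mice were the same. By this route the same 2 subunits were called, where 4.96% of all genes were (1.74% higher and 3.22% lower). Psmd8 was at -0.41 in the direct comparison (-0.52 and -0.29; limma, adjusted p = 0.0549) and Psmd11 at -0.39 (-0.35 and -0.43; limma, adjusted p = 0.0661). Both were below 0 in either experiment and neither was called. The highest subunits were Psma5 at 0.39 (0.48 and 0.31; adjusted p = 0.08, limma), Psma1 at 0.36 (0.46 and 0.27; adjusted p = 0.222, limma) and Psmb2 at 0.32 (0.34 and 0.30; adjusted p = 0.128, limma), none of them called. Psmb6 was at 0.12 (95% interval -0.13 to 0.38) and Psmb7 at -0.08 (95% interval -0.31 to 0.15). Without experiment 7 the values were those of experiment 8, with Psmb5 at -0.83 and Psmd5 at -0.91. Without experiment 8 Psmb5 was at -0.73 and Psmd5 at -0.86. Of 12 settings tried, Psmb5 was called in 10 and Psmd5 in 9.

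Whether the double knockout departed from the sum of the single knockouts was tested as an interaction on the log2 scale. It was -0.67 for Psmb5 (95% interval -0.90 to -0.45; limma, adjusted p = 0.0543) and -0.75 for Psmd5 (95% interval -1.12 to -0.38; limma, adjusted p = 0.114). By limma 0 of 35 subunits passed the threshold, where 0.719% of all genes did. An unadjusted p under 0.05 was found for 4 subunits and for 2415 of all 16683 genes. With experiments 1 to 3 and 4 to 6 as a block, or with the dye effect and the experiment as a random block, Psmb5 and Psmd5 passed. Psmb5 passed with the mean over probes or without the filter on dim probes. The share of all genes that passed in these fits was not counted, so these calls are not read as a result about the subunits. For Psmd8 the interaction was -0.35 (adjusted p = 0.256, limma).

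In livers that lacked Nrf2 alone, differences from wild type were small for the subunits as for all genes. In Nrf2 KO 0 of 35 subunits were called by limma, where 0.012% of all genes were, and 4 subunits and 617 of all genes had an unadjusted p under 0.05. The median size of the ratio regardless of sign was 0.06 for the 35 subunits and 0.10 for the 20S subunits, beside 0.05 for all genes. Of the 35, 26 were above 0 (13 of the 15 in the 20S core), where 52.3% of all genes were, and 14 lay within the interquartile range of all genes, -0.04 to 0.05 (3 of the 15). The values ran from -0.15 to 0.21, with Psma7 (0.20 and 0.22; mean 0.21), Psmb3 (0.29 and 0.12; mean 0.20) and Psmb4 (0.22 and 0.19; mean 0.20) the highest. Psmd10 (-0.06 and -0.24; mean -0.15), Psmb5 (-0.08 and -0.13; mean -0.10) and Psmd5 (0.00 and -0.16; mean -0.08) were the lowest. The intervals of the last 2 ran from -0.23 to 0.03 for Psmb5 and from -0.29 to 0.13 for Psmd5. The sign for Psmb5 turned with the dye in both experiments. With Nrf2 KO in Cy3 its ratio was 0.10 and 0.10, and in Cy5 -0.26 and -0.36. Psmb6 was at 0.16 (0.18 and 0.14) and Psmb7 at 0.02 (0.09 and -0.04). The experiments differed as a whole: 28 of 35 subunits were above 0 in experiment 1, with a median of 0.16, and 8 of 35 in experiment 4, with a median of -0.04. Of all genes 53.2% were above 0 in experiment 1 and 50.9% in experiment 4. Experiments 1 and 4 belonged to the sets that differed in sex-linked transcripts, and the part of that difference was not tested.

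Side by side, the log2 ratio of Psmb5 over wild type was -0.10 (Nrf2 KO), 0.53 (Atg7 cKO) and -0.25 (double knockout). Psmd5 gave -0.08, 0.67 and -0.17 for the same genotypes, Psmd8 gave -0.03, 0.78 and 0.40, and Psma5 gave 0.14, 0.10 and 0.58. Each of these comparisons used wild-type RNA from both sets of experiments, which differed in sex-linked transcripts. The labels do not say whether the wild-type RNA of a set came from the same mice.

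The 20S and 19S subunits differed little as groups. The median of the 20S subunits was 0.04 and that of the 19S subunits -0.05 in Atg7 cKO, a difference of 0.09 (0.01 and 0.08 within experiments 2 and 5). In the double knockout against wild type the medians were 0.14 for 20S and -0.01 for 19S, a difference of 0.15 (0.13 and 0.16), and 5 of 15 subunits of the 20S core were higher and 2 lower (46.7% called), while 2 of 20 of the 19S particle were higher and 1 lower (15% called), beside 37.1% of all genes. In the direct comparison they were 0.15 for 20S and 0.01 for 19S (0.24 and 0.11 within the experiments). In Nrf2 KO they were 0.09 for 20S and 0.03 for 19S (0.06 and 0.06). The 20S median was the higher in every comparison and in each of the 8 experiments, by amounts smaller than the spread of single subunits within either group. The subunits share arrays, so no test was made of these differences. By role and on the brightest probes, the 6 base ATPases kept within -0.24 to 0.02 in Atg7 cKO against wild type. In double-knockout livers they kept within -0.11 to 0.14. Other probes of Psmc2 and Psmc5 stayed within these ranges. A second probe of Psmc6 gave -0.36 in Atg7 cKO and -0.20 in double-knockout livers, and that of Psmc4 gave -0.01 and -0.19. The 19S assembly chaperones spanned -0.05 to 0.67 in Atg7 cKO on their brightest probes.

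**Figure D3:**
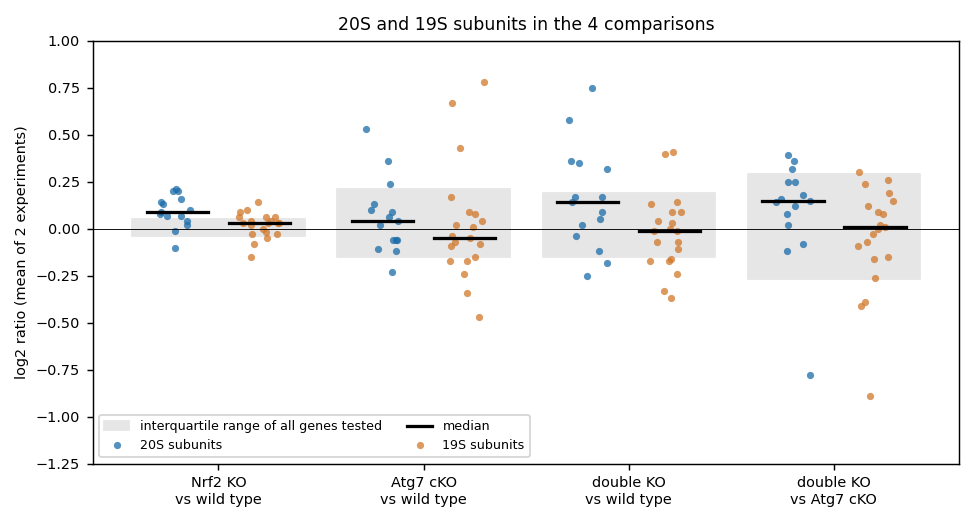
Log2 ratios (mean of 2 experiments, first-named genotype over the second) of 15 subunits of the 20S core and 20 of the 19S particle in 4 comparisons, with the median of each group as a bar and the interquartile range of all genes tested as a grey band. The medians of both groups lie near 0, with the 20S bar above the 19S bar each time, and single subunits such as Psmb5 and Psmd5 lie outside the band.

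Beside the constitutive subunits, 39 other genes of the pathway were examined, of which 38 were measured. Against wild type, 11 were higher and 4 lower in Atg7 cKO (39.5% called, beside 39.4% of all genes), and 11 were higher and 5 lower in the double knockout (42.1%, beside 37.1%). In the direct comparison 5 were higher and 2 lower in the double knockout (18.4%, beside 14.8%). In Nrf2 KO 0 were called by limma. The immunoproteasome subunits, which replace Psmb5, Psmb6 and Psmb7, were higher in both kinds of Atg7-deficient liver. In Atg7 cKO Psmb8 was higher than in wild type by 1.05 (1.21 and 0.89; limma, adjusted p = 0.0061), Psmb9 by 0.84 (0.79 and 0.89; adjusted p = 0.00719) and Psmb10 by 0.80 (0.97 and 0.63; adjusted p = 0.00891). The increases of the double knockout over wild type were 2.20 for Psmb8 (2.50 and 1.90), 2.30 for Psmb9 (2.32 and 2.28) and 1.92 for Psmb10 (2.15 and 1.69).

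All 3 immunoproteasome subunits were also higher in the double knockout than in Atg7 cKO directly, Psmb8 by 1.31 (limma, adjusted p = 0.0124), Psmb9 by 1.61 (adjusted p = 0.00416) and Psmb10 by 1.19 (adjusted p = 0.0112). In Nrf2 KO they stood at 0.31, 0.32 and 0.27 and were not called. Psmb5 and its replacement Psmb8 thus both rose in Atg7 cKO, while in the double knockout compared with Atg7 cKO Psmb5 was lower and Psmb8 higher. Macrophage, lymphocyte and neutrophil markers moved unevenly over these comparisons. In Atg7 cKO 14 of 15 macrophage markers (median 1.27) were higher than in wild type. So were 4 of 13 lymphocyte markers (30.8%, median 0.09) and 2 of 7 neutrophil markers (28.6%, median 0.20), beside 23.2% of all genes. In double-knockout livers 15 of 15 macrophage markers were higher than in wild type (median 1.52), beside 21.2% of all genes. So were 6 of 13 lymphocyte markers (median 0.33) and 5 of 7 neutrophil markers (median 0.50). In the direct comparison 2 macrophage markers were higher and 1 lower (median 0.28), beside 6.72% and 8.07% of all genes. There 6 of 13 lymphocyte markers (median 0.85) and 2 of 7 neutrophil markers (median 1.48) were higher. All 7 neutrophil markers were above 0 in both experiments of that comparison. The part of these cells in the immunoproteasome values was not tested.

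**Figure D4:**
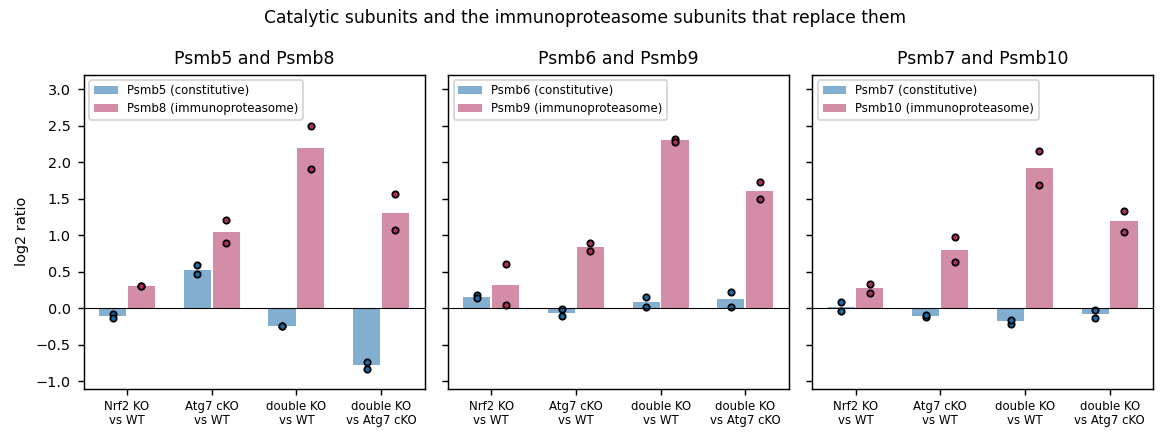
Log2 ratio of each constitutive catalytic subunit (blue) and of the immunoproteasome subunit that replaces it (red) in 4 comparisons; bars are means of 2 experiments, points the experiments. Psmb8, Psmb9 and Psmb10 reach 2.20, 2.30 and 1.92 in double KO vs wild type, where Psmb5, Psmb6 and Psmb7 stand at -0.25, 0.09 and -0.18.

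Of the regulators that open the core, Psme1 and Psme2, the interferon-inducible subunits of the PA28 activator, exceeded wild type by 0.81 and 0.67 in Atg7 cKO and by 1.03 and 1.12 in double-knockout livers (limma, adjusted p between 0.000746 and 0.00199). Directly between the double knockout and Atg7 cKO they stood at 0.13 (adjusted p = 0.423, limma) and 0.40 (adjusted p = 0.0846, limma) and were not called. Psme4, the activator PA200, was lower in the double knockout by a log2 ratio of -0.39 against wild type (limma, adjusted p = 0.0136) and -0.51 against Atg7 cKO (adjusted p = 0.0297); against wild type it was at -0.19 with median centring (adjusted p = 0.399, limma). Psmf1, the inhibitor PI31, was higher in Atg7 cKO by 0.44 (0.45 and 0.43; limma, adjusted p = 0.00617).

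The chaperones of 20S assembly were split in the double knockout. Psmg4 was higher by 0.75 (0.79 and 0.72; limma, adjusted p = 0.00165) and Pomp, which guides the beta ring, by 0.32 (0.41 and 0.22; adjusted p = 0.0295), while Psmg1 was lower by a log2 ratio of -0.35 (adjusted p = 0.0374) and Psmg3 by -0.38 (adjusted p = 0.00921). Psmg4 was also higher in the direct comparison, by 0.69 in both experiments (adjusted p = 0.0157). In Atg7 cKO 0 of these 5 chaperones were called by limma. Among proteins bound to the 19S particle, Sem1, the smallest lid subunit, was higher in the double knockout by 0.50 (limma, adjusted p = 0.00348), and the ubiquitin ligase Ube3c was lower in Atg7 cKO by a log2 ratio of -0.25 (adjusted p = 0.0233) and in double-knockout livers by -0.38 (adjusted p = 0.00668). Txnl1, a thioredoxin-like protein of the 19S particle, was at 0.22 in Atg7 cKO (adjusted p = 0.0416), and was not called with the deposited table (adjusted p = 0.179, limma) or an offset of 10 (adjusted p = 0.0927, limma). With median centring Psmg1 and Psmg3 were at -0.04 and -0.07 and Pomp at 0.41 in the double knockout, none of them called, and Ube3c was at 0.09 in Atg7 cKO and at -0.12 in double-knockout livers.

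Shuttle factors bring ubiquitinated proteins to the proteasome. Ubqln2, one of them, was higher in Atg7 cKO than in wild type by 0.75 (0.63 and 0.88; limma, adjusted p = 0.00196) and was lower in the double knockout than in Atg7 cKO by -1.43 (-1.21 and -1.66; adjusted p = 0.00524), the same directions as Psmb5 and Psmd5. These values are on different scales, since the second comes from the deposited table, in which Ubqln2 was at 1.40 in Atg7 cKO. Against wild type the double knockout was at 0.07 (limma, adjusted p = 0.493). Rad23b was lower than in wild type in Atg7 cKO by -0.29 (adjusted p = 0.0185) and in double-knockout livers by -0.34 (adjusted p = 0.0107). Of the cofactors of the segregase p97, Nploc4 was lower by -0.18 in Atg7 cKO (adjusted p = 0.028), and Nsfl1c was higher in Atg7 cKO by 0.27 (adjusted p = 0.011) and in double-knockout livers by 0.18 (adjusted p = 0.0406). Small differences depended on the scaling: with median centring Rad23b was at 0.08 and Nploc4 at 0.27 in Atg7 cKO, and Rad23b was at -0.08 in double-knockout livers, none of them called. Nsfl1c was at 0.73 in Atg7 cKO with median centring and was not called with the deposited table (adjusted p = 0.117 in Atg7 cKO and 0.294 in double-knockout livers, limma).

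Of the genes that encode ubiquitin, Ubb was higher than in wild type in Atg7 cKO by 0.63 (limma, adjusted p = 0.0264) and in double-knockout livers by 0.67 (adjusted p = 0.0226). Rps27a, a fusion of ubiquitin with a ribosomal protein, was higher by 0.49 and 0.52 in the same livers (adjusted p = 0.0197 and 0.0161). Nfe2l1, which encodes Nrf1, was not called in any comparison (-0.04 for Nrf2 KO, -0.08 for Atg7 cKO and 0.14 for the double knockout against wild type, and 0.18 directly). Ddi2, the protease that activates Nrf1, was lower in Atg7 cKO by -0.61 (-0.59 and -0.63; adjusted p = 0.00195) and higher in the double knockout than in Atg7 cKO by 0.91 (1.18 and 0.63; adjusted p = 0.0166), the reverse of Psmb5 and Psmd5. In Atg7 cKO it was at -1.21 in the deposited table, the scale of the direct value, and at -0.32 with median centring, and against wild type the double knockout was at -0.08 (adjusted p = 0.359, limma).

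**Figure D5:**
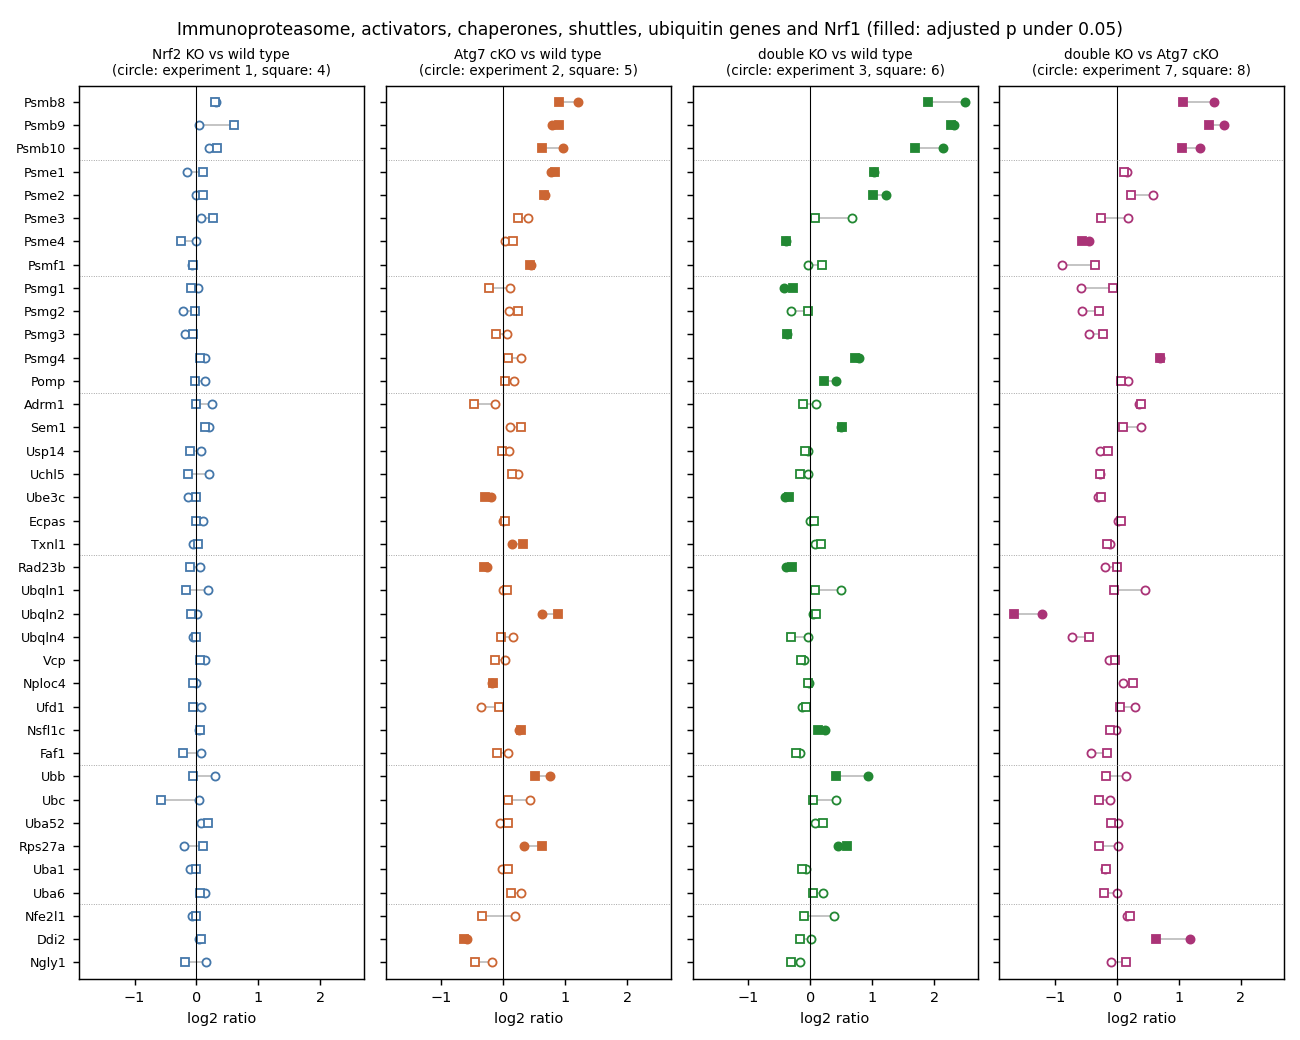
Log2 ratio of 38 other genes of the proteasome pathway in 4 comparisons, first-named genotype over the second; dotted lines divide groups by role, circles and squares are the 2 experiments and filled symbols have an adjusted p under 0.05 (limma). The immunoproteasome subunits at the top lie farthest to the right in double KO vs wild type, and Ubqln2 lies farthest to the left in double KO vs Atg7 cKO.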

How the data were processed

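Mouse liver RNA (500 ng per labelling, per the labels) was read on 16 arrays. For 12 arrays the scanner files, made with Agilent Feature Extraction 9.5.1.1 per the file headers (9.5.1 per the submitters' processing notes), held the mean signal and median background of each spot as intensity. The deposited value table held log10 ratios of Cy5 over Cy3 for all 16 arrays, which differed from the scanner log10 ratios by at most 0.005. It was the source for experiments 7 and 8. Median signals were 41.82 to 55.63 against backgrounds of 34.5 to 36.5, 43.42% to 57.19% of spots were well above background, and the number of arrays limits the precision.

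Signals were corrected by normexp (offset 50, which shrinks ratios of dim genes) and loess in limma 3.58.1 (R 4.3.3, data.table version 1.17.8), without outlier spots. Ratios were averaged over spots and over each dye swap, which counted as 1 replicate. Probes well above background in at least 4 of 24 channels were kept, and the brightest probe stood for a gene. Probes were named through RefSeq accessions (24844) or symbols (6045). No subunit probe was renamed, saturated or flagged. One fit of 3 group means covered experiments 1 to 6 and another of 4 group means all 8, with 3 and 4 residual degrees of freedom and priors of 2.21 and 2.14. P-values, adjusted by Benjamini-Hochberg, share 1 spread per gene over the groups of a fit. The fits were tested on simulated data.

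Named were subunits called in any comparison, the 3 highest and 3 lowest of each, Psmb5, Psmb6 and Psmb7, and subunits with probes on both sides of 0 that differed by over 0.5. Of the pathway, genes called in any comparison, Nfe2l1, the immunoproteasome subunits and Psme1 and Psme2 were named. The subunits and lists were chosen with earlier results of these data known. One gene of the pathway list is not reported here. Alternatives were the deposited table, an offset of 10, median centring, no filter, the mean over probes, slide, set or dye blocks, leaving out each experiment, and 19S without its chaperones.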

Additional observations from a re-analysis of the deposited data

How the results depend on the processing

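In Atg7 cKO 6 of 35 subunits were called, where 39.4% of all genes were. With median centring 18 were called, where 45.9% of all genes were. In the double knockout against wild type 10 were called, where 37.1% of all genes were. Leaving out experiment 3, 5 or 7 lowered the number of calls in its own comparison, among all genes as among the subunits. In the direct comparison 2 were called, against 5 without the filter on dim probes and 0 with experiments 7 and 8 alone. Of all genes 14.8% were called, against 6.87% and 0.641% in these settings. For the interaction 0 were called, where 0.719% of all genes were. The count was 1 without the filter, 1 with the mean over probes, 2 with the sets as a block and 2 with dye and random block. The share of all genes called for the interaction in these settings was not counted. Median centring turned the sign of 3 called ratios, to 0.01 for Psmb5 and 0.14 for Psmb7 in the double knockout and to 0.21 for Psmc1 in Atg7 cKO. It put the median of all genes at 0.06 for Nrf2 KO, 0.21 for Atg7 cKO and 0.14 for the double knockout against wild type. The cause of these changes was not tested beyond that shift.

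The difference of 20S over 19S medians in Nrf2 KO, 0.06, was 0.063 in the deposited table, 0.076 with an offset of 10, 0.05 with median centring, 0.056 without the filter, 0.063 with the mean over probes, 0.085 with slide as a block, 0.058 without the 19S chaperones and 0.062 to 0.065 when 1 experiment was left out. In Atg7 cKO it was 0.01 to 0.083 when 1 experiment was left out. In the double knockout it was 0.106 with median centring and 0.076 with slide as a block. In the direct comparison it was 0.113 to 0.244 when 1 experiment was left out (0.244 without experiment 8). Over the differences and counts printed for whole groups, 84 values were labelled as the same and 24 as moved. A count was labelled the same within a set fold of the main count. A difference was labelled the same within the standard deviation of its 2 experiments. That deviation was 0 after rounding for Nrf2 KO and 0.09 for the direct comparison, so the labels are not alike in strictness. Comparisons share no experiment number. The matched fit was that with experiments 1 to 3 and 4 to 6 as a block. It called 9 subunits in Atg7 cKO, where 47% of all genes were called. In the double knockout against wild type it called 13, where 44.6% of all genes were called. In the interaction it called 2, where the share of all genes was not counted. Arrays limit the precision, and ratios of dim probes such as that of Psma8 are the least certain.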
